A study of Haplochromis burtoni and Eretmodus cyanostictus and Lepidiolamprologus attenuatus with 30 samples.

Results

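The genes described here are 80 of the 38425 gene rows measured in the intestines of 3 African cichlid fishes, and they were high in Lepidiolamprologus attenuatus along the whole gut. They were selected on measured levels in these same libraries. Counts were scaled to CPM, the count divided by each library's gene total and multiplied by 1000000, and averaged over the 10 libraries of a species. A member had a mean of at least 10 CPM in L. attenuatus and at least 1 CPM in both Haplochromis burtoni and Eretmodus cyanostictus, and its L. attenuatus mean was at least 4 times each of the other means. In addition, the highest of its 5 section means in L. attenuatus was under 4 times the lowest. The species difference and the flat course in L. attenuatus are therefore how the members were chosen, and they are given below as a description without a test.

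Bulk RNA sequencing was done on 30 libraries, from 2 fish of each species and 5 sections of each intestine. The intestine was cut into parts of equal length, numbered from 1 (anterior) to 5 (posterior), so a section number is a relative position and not an anatomical landmark. The groups are the 5 sections of H. burtoni (fish 1 and 2), of E. cyanostictus (fish 3 and 4) and of L. attenuatus (fish 6 and 7), with no treatment, and the age and sex of the fish are not given in the sources used here. The sections of a fish share 1 intestine, so the replicate of a species is the fish.

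The 3 species belong to the cichlid radiation of Lake Tanganyika and its surroundings, whose members differ widely in diet. L. attenuatus is a predator of the lamprologine group, E. cyanostictus scrapes algae from rocks, and H. burtoni is a generalist feeder. Along a fish intestine the anterior part is known mainly for the digestion and uptake of lipid and other nutrients, and the posterior part for the uptake of whole protein by specialised enterocytes.

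The table gives genes as numeric IDs with no names. A gene table of H. burtoni (assembly NCSU_Asbu1) with 28690 entries held 0 of these IDs. The function, length and position of the members are therefore not given, the marker genes of the intestine and of other cell types could not be looked up, and no sequence is shown. The members are numbered here from 1 to 80 in falling order of the ratio between the L. attenuatus mean and the higher of the other species' means. The IDs of 4 of them are given. CPM values are not per length, so they are compared between species within a gene and not between genes. A gene's level in bulk tissue falls alike with fewer cells of a type and with less RNA per cell, and these cannot be told apart.

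Library depth was similar in the 3 species, with 6311892 to 11353391 counts on genes. Reads on no annotated gene took 6.15% to 8.69% of the counts in L. attenuatus, 6.99% to 10.3% in E. cyanostictus and 6.75% to 16.5% in H. burtoni. The highest of these shares belonged to section 4 of H. burtoni fish 2, which was also the shallowest library. The reference used for alignment is not stated, so a true difference in level and a difference in how well the reads of a species align to it cannot be told apart in any species contrast.

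In L. attenuatus 10571 genes had a mean of at least 10 CPM, and 10450 of these also reached 1 CPM in both other species. Among these 10450 genes, 124 (1.19%) were at least 4 times higher in L. attenuatus than in each other species. The limit on sections removed 44 of them and left the 80 members. A further 39 genes were flat and at least 4 times higher but fell below 1 CPM in at least 1 other species, and are not members. Just inside the limit on the ratio lay members with ratios of 4.04, 4.06 and 4.06, and just outside lay genes with 3.96, 3.93 and 3.93. For the limit on sections, the nearest values were 3.73, 3.88 and 3.94 inside and 4.12, 4.38 and 4.46 outside.

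**Figure D1:**
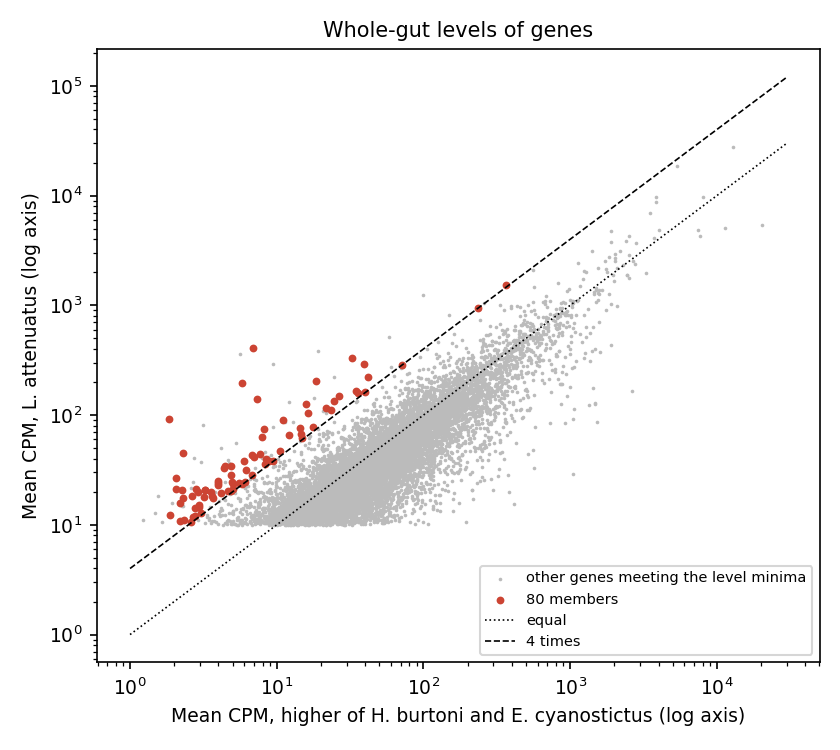
Mean CPM in L. attenuatus against the higher of the means in H. burtoni and E. cyanostictus, both on log axes, with 1 point per gene for the 10450 genes that meet the level minima. The 80 members (red) lie above the dashed line of 4 times, and grey points above that line are the 44 genes removed by the limit on sections.

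The members were mostly expressed at a low level in the other species. Their median was 33.5 CPM in L. attenuatus (range 10.7 to 1543), 4.10 CPM in H. burtoni (1.03 to 363) and 4.75 CPM in E. cyanostictus (1.24 to 187). In both other species 37 of the 80 stayed under 5 CPM. The ratio had a median of 5.43 and reached 58.8, and 33 members lay between 4 and 5 while 13 were at 8 or above. Together the members took 0.616% to 0.949% of the gene counts in L. attenuatus libraries, 0.0934% to 0.147% in H. burtoni and 0.0629% to 0.124% in E. cyanostictus. The lowest L. attenuatus library was thus above the highest library of either other species for the summed members, as their choice makes likely.

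For 60 of the 80 members, all 10 L. attenuatus libraries exceeded all 20 libraries of the other species, a separation seen in 1.94% of the 10450 genes. In 9 members a single L. attenuatus library failed to do so, and in 5 members at most 5 libraries exceeded the others. On counts summed per fish, 70 members were called higher than in H. burtoni and 75 higher than in E. cyanostictus (edgeR, adjusted p under 0.05), beside 8.87% and 9.07% of 24792 genes in those directions. Both contrasts include the same L. attenuatus libraries and are the ones used to choose the members, so nothing is read from these counts.

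**Figure D2:**
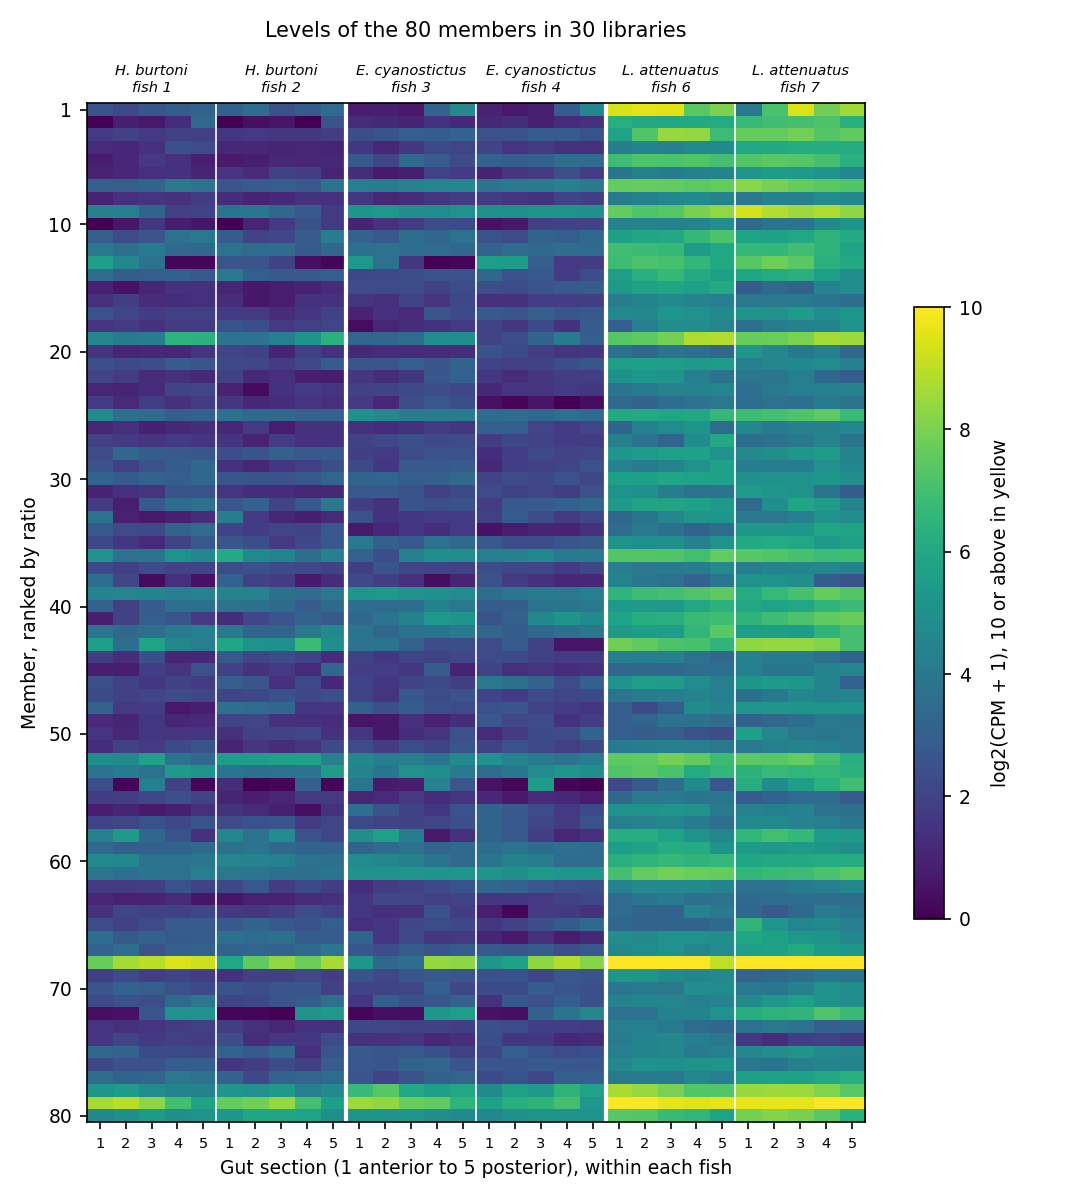
Level of each of the 80 members (rows, in order of ratio) in the 30 libraries (columns, 5 sections of each of 6 fish) as log2(CPM + 1). The 10 columns of L. attenuatus are brighter in nearly all rows, and members 54, 65, 72 and 74 are darker in 1 of its fish than in the other.

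Gene ID 109194203 (member 2) had the largest ratio among members whose libraries were fully separated. In L. attenuatus it ran from 63.2 to 75.3 CPM in fish 6 and from 80.6 to 145 CPM in fish 7. In E. cyanostictus it lay between 0.837 and 1.80 CPM in all 10 libraries. In H. burtoni it was at 0 counts in section 1 of both fish, at or under 1.47 CPM in sections 2 to 4, and at 9.59 and 5.03 CPM in section 5. The L. attenuatus mean of 92.0 CPM was 50.2 times the H. burtoni mean, and the smallest difference was in section 5, at 10.4 times.

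Gene ID 100708991 (member 3) was low and even in both other species. It ran from 1.96 to 2.84 CPM in H. burtoni and from 4.30 to 7.94 CPM in E. cyanostictus. In L. attenuatus fish 7 it stayed between 158 and 234 CPM, whereas fish 6 went from 55.5 CPM in section 1 to 347 CPM in section 3 and 115 CPM in section 5. Both fish were far above the other species in all sections, at 23.9 times or more by section mean, but they did not share a course along the gut.

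Member 1, with the largest ratio of all (58.8), was the least steady of the leading members. L. attenuatus fish 6 held 669, 766, 727, 171 and 260 CPM in sections 1 to 5, and fish 7 held 14.9, 138, 710, 229 and 375 CPM. The section 1 library of fish 7 was therefore below both section 5 libraries of E. cyanostictus, the lower of which held 23.4 CPM, and far below section 1 of fish 6.

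The ratio was then taken within each section, against the higher of the other species in the same section. Its median over the 80 members was 5.03, 6.07, 6.07, 5.90 and 4.95 in sections 1 to 5. Of the 80 members, 29 were at least 4 times higher in all 5 sections, 23 in 4 sections, 19 in 3 and 9 in 2. A difference of at least 2 times was present in all 5 sections for 73 members. The choice of members makes these section counts likely, and the shares over all genes were not computed. Member 33 was the exception among all 80 in that its L. attenuatus mean in section 1 was below the H. burtoni mean, with a ratio of 0.804.

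**Figure D3:**
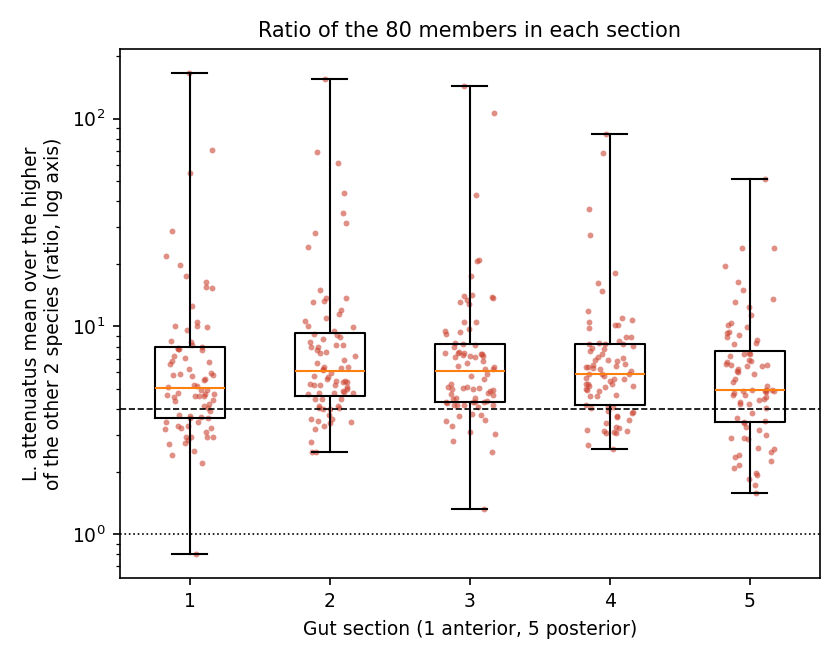
Ratio of the L. attenuatus section mean to the higher of the other species' means in the same section, on a log axis, with 1 point per member, a box from the lower to the upper quartile, a line at the median and whiskers to the extremes. Medians lie between 4.95 and 6.07, and the point below the dotted line of equality in section 1 is member 33 at 0.804.

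The members' levels also varied between the L. attenuatus fish. The fish means differed at least 2-fold for 15 of 80 members, beside 4.97% of the 10450 genes. Fish 7 was the higher in 10 of these 15 and fish 6 in 5. For 72 members both fish were at least 2 times above the highest fish of the other species, and for 33 at least 4 times. The choice of members makes such counts likely, and shares over the 10450 genes were not computed. A mean over both fish can be met through 1 fish alone, so the choice of members favours such genes to an extent that was not tested.

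Member 74 showed this most plainly. In fish 6 it ran from 14.7 to 24.5 CPM, whereas in fish 7 it stayed between 1.41 and 2.80 CPM, within the range of the other species (1.19 to 4.34 CPM). Its rank among the members thus came from fish 6. Members 54, 65, 72 and 50 were carried by fish 7, with fish means of 10.5 and 69.7, 8.70 and 39.1, 20.3 and 102, and 5.89 and 23.2 CPM in fish 6 and 7. In each of these 4 the lower fish was still 1.19 to 1.54 times the highest fish of the other species.

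In H. burtoni 9 of the 80 members differed at least 2-fold between fish (background 2.91%), and in E. cyanostictus 16 (background 15.1%). When log2(CPM + 1) within L. attenuatus was divided into fish, section and remainder, the median member had 28.9% between fish and 47.3% between sections, beside 11.6% and 68.4% for the 10450 genes. The limit on sections, which 89.1% of the 10450 genes also met, bears on the section share to an extent that was not tested. In H. burtoni, where no such limit applied, the members' medians were 13.5% and 58.8%, beside 10.9% and 58.3% of all these genes. In E. cyanostictus, also without such a limit, they were 15.5% between fish and 52.1% between sections, beside 24.6% and 41.5%. These differences were not tested.

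**Figure D4:**
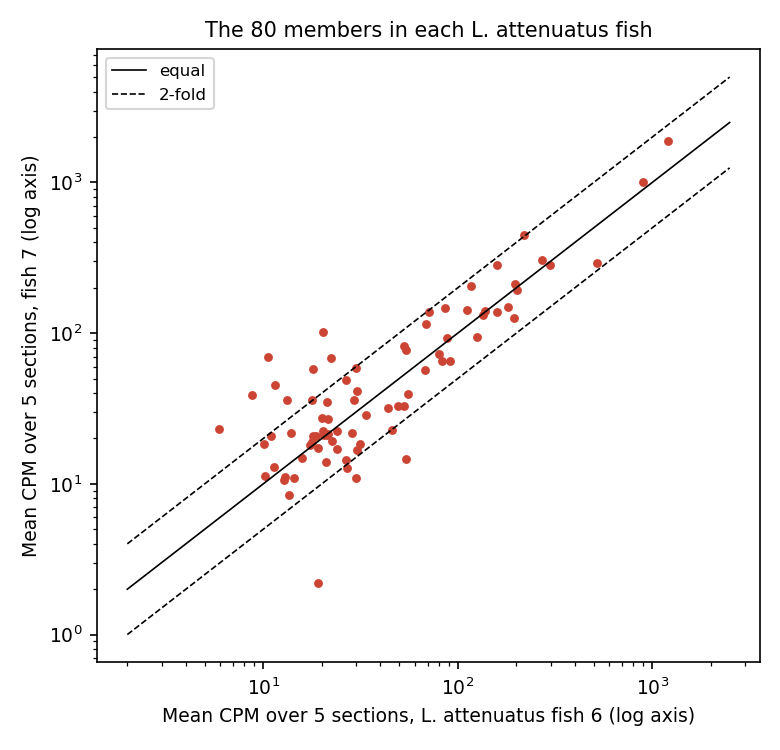
Mean CPM over the 5 sections in L. attenuatus fish 6 and fish 7, both on log axes, with 1 point per member. Most of the 80 points lie between the dashed lines of a 2-fold difference, 15 lie on or outside them, and the point farthest below them is member 74 at 19.2 and 2.19 CPM.

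The same measure was read in fish that had not served for the choice. The rule was applied to 1 fish of each species, in all 8 combinations, and the ratios of the genes so chosen were taken in the other fish. Between 66 and 87 genes were chosen each time. In the fish left aside, 78.3% to 89.4% of the genes so chosen were at least 2 times higher in L. attenuatus than in each other species. By any amount, 93.8% to 97.0% were higher. The limit of 4 times was met again by 43.4% to 57.4%. Shares over all genes in the fish left aside were not computed, so these values are a description only. With all fish together, 1.19% of the 10450 genes met the limit of 4 times. That share comes from means over both fish and is no matching background for ratios of single fish. The median ratio was 5.28 to 5.85 in the choosing fish and 3.32 to 4.51 in the other fish. The cause of this fall was not tested. Sets chosen in fish 6 met the limit again in 47.8% to 57.4% of cases and those chosen in fish 7 in 43.4% to 45.0%.

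The course of the members along the gut of H. burtoni was not used to choose them and could be tested. Among the 80 members, 4 differed among the 5 sections (edgeR quasi-likelihood F-test, adjusted p under 0.05, 2 fish), beside 4.3% of 19886 genes. Between the gut ends 11 members differed, 4 higher and 7 lower in section 5, beside 7.54% of all genes (3.94% higher and 3.6% lower). With the fish as a block, 12 members (background 12.3%) and 25 members (background 17.2%) were called. Without the block the count of 4 lies near the background and the count of 11 somewhat above it, while 23 and 31 members had an unadjusted p under 0.05, beside 20.2% and 24.7% of all genes. The count of 11 was 3 without fish 1 (background 0.879%) and 2 without fish 2 (background 0.876%), in fits of the remaining libraries of all species in which a lone fish is taken to vary like the other groups. The calls over all genes thus became fewer as well. Without the shallow section 4 library of fish 2 the counts were 9 (background 6.96%) and 13 (background 8.75%), an alternative added after the data were seen.

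Gene ID 100705554 (member 13) had the largest called fall toward the posterior end. In H. burtoni fish 1 it went through 46.6, 23.8, 12.2, 0.123 and 0.130 CPM from section 1 to 5, and in fish 2 through 5.42, 5.46, 2.78, 0.317 and 0.120 CPM. In both fish the level was near 0 after section 3. Section 1 held 456 counts over both fish and section 5 held 2, a ratio of 223 (exact 95% interval 61.3 to 1843, counting error only). The log2 change was -7.72 (SE 1.69, edgeR adjusted p = 0.0305), a size that rests on 2 counts. Without fish 1 it was -5.35 and no longer called (edgeR adjusted p = 0.300), and without fish 2 it was -8.54 (0.0719). Over all alternatives the adjusted p ran from 1.99e-06 to 0.300.

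In E. cyanostictus member 13 went from 38.8 to 0.107 CPM in fish 3 and from 47.5 to 2.47 CPM in fish 4. There it did not pass (log2 change -5.25, edgeR adjusted p = 0.290), but it passed with the fish as a block (0.0355) and in 4 of 8 alternatives in all, whose adjusted p ran from 0.00961 to 0.314. In L. attenuatus the gene kept a high level to the end of the gut. Fish 6 held 114, 144, 136, 96.4 and 66.2 CPM in sections 1 to 5, and fish 7 held 168, 222, 173, 85.0 and 65.6 CPM. The ratio between L. attenuatus and the higher other species was therefore 3.26 in section 1, 83.9 in section 4 and 51.2 in section 5. The rule allows no member a decline of 4-fold or more in L. attenuatus, so this contrast between species was built into the choice.

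Gene ID 106098861 (member 33) fell in H. burtoni and went the other way in L. attenuatus. In H. burtoni section 1 held 12.3 and 18.1 CPM in fish 1 and 2, and sections 2 to 5 held 0.600 to 2.12 CPM, with no overlap. The log2 change from section 1 to 5 was -3.53 (SE 0.46, edgeR adjusted p = 0.00783), lower in 2 of 2 fish. It was called without fish 1 (edgeR adjusted p = 0.0336) and just missed without fish 2 (0.0547), and over all alternatives the adjusted p ran from 5.63e-08 to 0.0547. In E. cyanostictus it ran from 1.66 to 6.48 CPM, with a log2 change of -0.60 that did not pass. In L. attenuatus fish 6 it went through 9.14, 13.8, 23.7, 35.7 and 36.7 CPM, and fish 7 through 15.3, 14.6, 19.6, 33.7 and 28.7 CPM. The levels of H. burtoni and L. attenuatus thus overlapped in section 1 and were apart from section 2 onward.

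Of the 7 members called lower in section 5 of H. burtoni, 7 had a negative change in E. cyanostictus and 6 in L. attenuatus. Beside members 13 and 33 the 7 were members 9, 14, 46, 58 and 79, with log2 changes from -3.20 to -1.07. The share of such signs over all genes called lower was not computed, and the rule used the L. attenuatus sections. Nothing is read from these counts. In E. cyanostictus the median log2 change over all genes tested was -0.12. Member 79 was abundant, at 413 and 197 CPM in section 1 and 52.6 and 50.1 CPM in section 5 of H. burtoni fish 1 and 2 (log2 change -2.71, edgeR adjusted p = 0.0215, with 5.16e-06 to 0.618 over all alternatives). In L. attenuatus it stayed between 742 and 1315 CPM in all 10 libraries, so its ratio went from 3.11 in section 1 to 16.4 in section 5.

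The 4 members called higher in section 5 of H. burtoni were members 2, 19, 71 and 72. For gene ID 109194203 (member 2), section 1 held 0 counts and section 5 held 116 over both fish. With a floor of 3 counts over both fish section 5 was at least 39.6-fold higher, and the exact 95% interval of the ratio starts lower, at 31.7 (edgeR adjusted p = 0.0238). It was also called without fish 1 (0.0247) and without fish 2 (0.0122), and over all alternatives the adjusted p ran from 6.65e-05 to 0.0247. The gene was therefore a posterior one in H. burtoni, at a uniform low level in E. cyanostictus, and high throughout L. attenuatus.

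Member 72 was low in the anterior and high in the posterior gut of both other species. In H. burtoni it had at most 0.387 CPM in sections 1 and 2, and 32.2 and 34.9 CPM in section 4 of fish 1 and 2. Section 5 held 599 counts over both fish against 4 in section 1, a ratio of 153 (exact 95% interval 59.6 to 565), and the log2 change was 7.06 (SE 1.38, edgeR adjusted p = 0.0217). It was not called without fish 1 (0.269) or without fish 2 (0.399), and over all alternatives the adjusted p ran from 0.00129 to 0.399. E. cyanostictus held in section 5 675 counts against 4 in section 1, a ratio of 134 (interval 52.0 to 493), with a log2 change of 6.81 that did not pass with or without the block (edgeR adjusted p = 0.0817 and 0.188). In L. attenuatus it was present from section 1 onward, at 12.3 to 34.5 CPM in fish 6 and 73.2 to 150 CPM in fish 7. In sections 4 and 5 fish 6, at 22.1 and 34.5 CPM, lay within the range of the other species. Their libraries held 13.7 to 37.7 CPM in section 4 and 22.6 to 46.9 CPM in section 5.

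**Figure D5:**
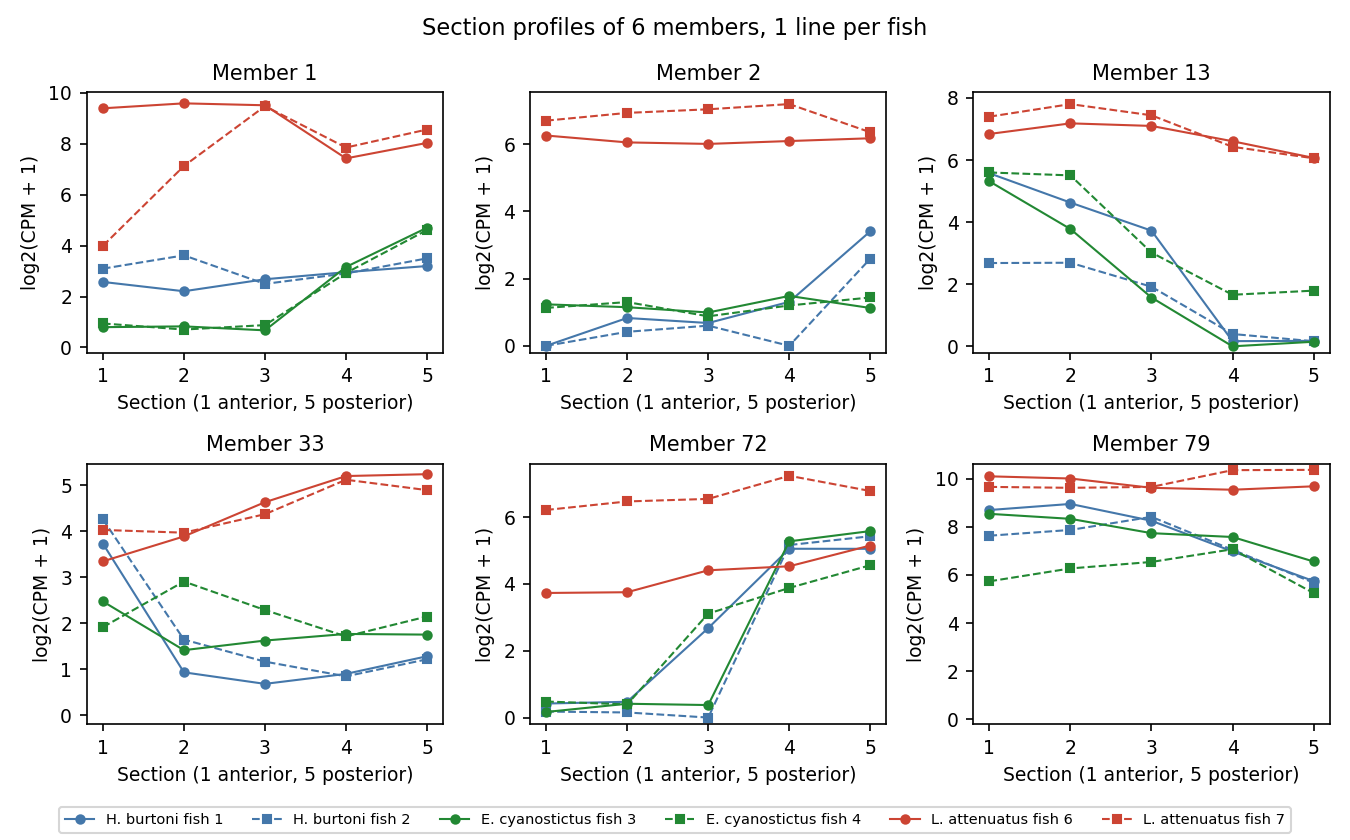
Level by section as log2(CPM + 1) for 6 members, with 1 line per fish (solid with circles for fish 1, 3 and 6, dashed with squares for fish 2, 4 and 7) and a separate vertical scale in each panel. Members 13 and 79 decline toward section 5 in H. burtoni, and members 2 and 72 appear there in posterior sections. For these members the L. attenuatus lines (red) change less than those of H. burtoni, which the limit on sections favours. They are not flat, as member 13 in fish 7 goes from 222 CPM in section 2 to 65.6 CPM in section 5. Member 1 starts at 14.9 CPM in fish 7, and in fish 6 it goes from 766 CPM in section 2 to 171 CPM in section 4.

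In E. cyanostictus, without the fish as a block, 1 of the 80 members differed among sections. It was the single gene called for sections in that fit (0.00482% of 20733 genes). This was member 1, which was also the member called between the gut ends, beside 0.0289% of all genes. It lay between 0.592 and 0.921 CPM in sections 1 to 3 of both fish, at 7.93 and 6.59 CPM in section 4 of fish 3 and 4, and at 23.4 CPM or slightly above in both section 5 libraries. The fitted change on the log2 scale was 4.63 (SE 0.36, edgeR adjusted p = 0.0305), and section 5 was higher in 2 of 2 fish. In these edgeR tests 9 members for sections and 15 for the gut ends had an unadjusted p under 0.05, beside 7.43% and 10.2% of all genes. Without fish 3 the change was 4.60 (edgeR adjusted p = 0.232) and without fish 4 it was 4.72 (0.387), with a range over all alternatives from 5.39e-16 to 0.387. In H. burtoni member 1 ran from 3.61 to 11.3 CPM. It was not called there for sections (edgeR adjusted p = 0.837) or between the gut ends (0.526).

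With the fish as a block, 1 member was called for sections of E. cyanostictus (background 1.83%) and 2 for the gut ends (background 2.73%), members 1 and 13. Without fish 3 no member (0) was called between the gut ends (background 1.95%), and without fish 4 the 1 called was member 13 (background 1.27%). DESeq2 called 8 members for sections (background 5.90%) and 7 for the gut ends (background 4.43%). A strong gradient in either other species, with section means at least 4-fold apart on CPM + 1, was present in 14 members, 11 in H. burtoni (8.03% of the 10450 genes) and 7 in E. cyanostictus (6.10%), with 4 in both. The median absolute log2 change between the gut ends was 0.72 in H. burtoni and 0.60 in E. cyanostictus for the members, and 0.49 and 0.43 over all genes tested.

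Whether the section course differed between E. cyanostictus and H. burtoni was tested in the fit of all 30 libraries. No member (0) passed, beside 0.0267% of 22430 genes, while 8 had an unadjusted p under 0.05 (background 5.93%) and DESeq2 called 3 (background 2.01%). With the fish as a block 4 members passed (background 1.5%), namely members 2, 22, 33 and 52. The test takes all section changes together, so its p-values are not for the change from section 1 to 5 alone. For gene ID 109194203 (member 2) it gave an edgeR adjusted p of 0.0150 with the block and 0.177 without. The rise from section 1 to 5 seen in H. burtoni was missing in E. cyanostictus. For gene ID 106098861 (member 33) the same test gave an edgeR adjusted p of 0.0282 with the block and 0.124 without. The fall from section 1 to 5 seen in H. burtoni was not shared by both E. cyanostictus fish. Fish 3 went from 4.54 to 2.36 CPM, and fish 4 went up from 2.76 to 3.41 CPM.

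The levels of the members in E. cyanostictus and H. burtoni were compared on counts summed per fish. The rule holds both levels at or above 1 CPM and at least 4 times below the L. attenuatus mean. It therefore also limits how far they can differ. Of the 80 members, 9 differed (edgeR, adjusted p under 0.05), 6 higher and 3 lower in E. cyanostictus, beside 14.1% of 24792 genes, of which 6.76% were higher and 7.35% lower. The members' share was thus not above the background, but the background genes are not held to this limit, so nothing is read from the comparison. Their median absolute log2 difference was 0.52, against 0.60 over all genes. The count was 0 without fish 1 (background 0.675%), 0 without fish 2 (0.643%) and 12 without fish 3 (14.6%). It was 6 without fish 4, 6 or 7 (7.33% to 7.89%).

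The clearest of these differences was at member 5. It had means of 1.14 CPM in H. burtoni and 7.32 CPM in E. cyanostictus, and the ranges of 0.661 to 2.16 and 3.21 to 10.9 CPM did not overlap. The log2 difference was 2.48 (SE 0.26, edgeR adjusted p = 0.00626, with 1.12e-11 to 0.0714 over all alternatives). In L. attenuatus the same gene ran from 80.8 to 172 CPM, so the 3 species formed 3 separate levels. Gene ID 100708991 (member 3) was likewise graded, with 2.34 CPM in H. burtoni, 5.82 CPM in E. cyanostictus and 198 CPM in L. attenuatus, and a log2 difference of 1.13 between H. burtoni and E. cyanostictus (SE 0.24, edgeR adjusted p = 0.0326). The largest difference in the other direction was at member 43, at 42.0 CPM in H. burtoni and 5.67 CPM in E. cyanostictus (log2 difference -2.97, SE 0.66, edgeR adjusted p = 0.0362). Members 41, 56, 61 and 63 were also higher in E. cyanostictus, and members 14 and 19 lower. No call of a member in this contrast, members 3, 5 and 43 included, held under all alternatives.

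Within L. attenuatus the members were flat by rule, and their remaining variation is described only. The ratio of the highest to the lowest section mean had a median of 1.79 and was under 2 in 44 members, against 63.4% of the 10450 genes. By CPM, members were most often lowest at the gut ends, with 30 lowest in section 1 and 30 in section 5. The share over all genes was not computed for these lowest sections. Members were most often highest, also by CPM, in sections 3 and 5 (20 or 25% each), beside 18.4% and 32.3% of the 10450 genes. Section 4 was the highest for 16 members (20%), beside 33.7%. Sections differed at 8 members (background 9.35%, or 25 members and 22.5% with the fish as a block). Between the gut ends 15 members were called, 3 higher and 12 lower in section 5 (background 15.7%, with 7.83% higher and 7.88% lower), or 31 with the block (background 29%). The rule used these sections, so nothing is read from the counts. On TMM scaling, the members' median log2 change from section 1 to 5 was -0.42, beside 0.03 over all genes tested. TMM factors over all 30 libraries were 0.729 and 0.796 in section 1 of fish 6 and 7, and 1.004 and 1.017 in section 5. The ranks by CPM and this change are therefore on different scales, and ranks under TMM scaling were not computed.

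Member 68, with a ratio of 4.26, had a mean of 1543 CPM in L. attenuatus, with 524 to 1420 CPM in fish 6 and 1226 to 2520 CPM in fish 7. In the other species its fold range was wider, from 61.6 to 715 CPM in H. burtoni and from 9.51 to 464 CPM in E. cyanostictus. The rule limits the section range in L. attenuatus only, so this contrast was favoured by the choice. The section 5 library of L. attenuatus fish 6 lay within the H. burtoni range, and the other 9 L. attenuatus libraries lay above it.

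The same rule was also turned toward each of the other species. It found 85 genes high along the whole gut of H. burtoni and 116 in E. cyanostictus, against the 80 of L. attenuatus. All 10 libraries of the species were above the other 20 in 64 of the 85, 58 of the 116 and 60 of the 80. The fish of the species differed at least 2-fold in 14 of the 85, 47 of the 116 and 15 of the 80. Shares over all genes meeting the level minima of the turned rules were not computed, so nothing is read from these counts. These differences between sets were not tested.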

How the data were processed

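Total RNA of intestinal sections was sequenced after TruSeq library preparation, per the labels' protocols. Trimmomatic, STAR and HTSeq are named in the submitters' processing notes, without versions, and which genome build and annotation they used is not given in the sources used here. The authors deposited 1 table of raw counts per gene ID and library (38425 gene rows and 5 rows for unassigned reads). Library sizes and tests did not use the unassigned rows.

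Columns were matched to species and section by name. The fish numbers 3, 4, 6 and 7 of E. cyanostictus and L. attenuatus are those of the column names and differ from the labels, which number the fish of each species 1 and 2. Sections of 1 fish come from the same animal: differences between the fish of a species correlated positively between all 10 pairs of sections, at 0.226 to 0.646 in H. burtoni, 0.264 to 0.816 in E. cyanostictus and 0.318 to 0.659 in L. attenuatus, across genes.

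CPM was computed from column totals. Tests across all genes used edgeR 4.0.16 in R 4.3.3 (filterByExpr, TMM scaling, robust quasi-likelihood F-test, Benjamini-Hochberg adjustment over all genes tested, threshold 0.05), with DESeq2 1.42.0 as an alternative. Species were compared on counts summed per fish (6 sums in 1 fit), sections within the 10 libraries of a species, and section courses in all 30 libraries. All 80 members passed the filters of these fits. A floor of 3 counts was used where a group was at 0, and intervals cover counting error only. The scripts were tested on simulated data. The members and the tests were chosen with earlier results of these data known. IDs without names were to be given for at most 4 members: the 2 with the largest ratio and fully separated libraries, and the 2 with the largest fall from section 1 to 5 in H. burtoni or E. cyanostictus, called falls first. Other members singled out were chosen after their values were seen. Lists of cell type markers and pathways could not be used without gene names.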

Additional observations from a re-analysis of the deposited data

Results flagged for a closer look

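For 7 measures (the summed members and the members 1, 2, 3, 13, 33 and 72) the 10 libraries of each species were searched for a single library far from the rest. Of 21 sets searched, 2 held such a library. If the libraries of a set were alike, chance alone would give 1.05 (about 1 in 20 sets). The libraries of a set differ by section and fish, so this rate does not apply and nothing is read from it. Gene ID 109194203 (member 2) stood apart in section 5 of H. burtoni fish 1, at 9.59 CPM with the next library at 5.03 CPM, which is section 5 of fish 2. Gene ID 100705554 (member 13) stood apart in section 1 of H. burtoni fish 1, at 46.6 CPM with the next library at 23.8 CPM, which is section 2 of the same fish.

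Among the 12 members called between the gut ends in H. burtoni or E. cyanostictus, the only ones searched, there were 2 at which the change from section 1 to section 5 had opposite directions in both fish of H. burtoni and both fish of L. attenuatus. Member 2 went up by 9.59 and 5.03 CPM in H. burtoni (fitted log2 change 8.80, which depends on the prior count because section 1 was at 0 and is no measure of size) and had changes of -4.21 and -22.0 CPM in L. attenuatus. Member 33 had changes of -10.8 and -16.8 CPM in H. burtoni (log2 change -3.53) and of 27.6 and 13.4 CPM in L. attenuatus. The difference between these species was not tested, because the rule limits the section range in L. attenuatus.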

How the results depend on the processing

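The number of members was 80, and 104 with TMM scaling (77 of the 80 among them), 78 with medians over libraries, and 65 to 86 when 1 fish was left out, with 53 to 73 of the 80 kept. It was 134 at a ratio of 3 and 13 at a ratio of 8, 44 with a section range under 2 and 124 with no section limit. The number was 28 with at least 5 CPM in the other species and 28 with at least 50 CPM in L. attenuatus. In place of the ratio limit, each L. attenuatus library could be required to exceed each other library. That gave 200 genes, with 60 of the 80 among them. TMM scaling moved the median log2 difference of L. attenuatus over all 10450 genes from 0.05 to 0.11 against H. burtoni and from -0.13 to 0.11 against E. cyanostictus.

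Counts of members called for sections of H. burtoni (4) were 1 at an adjusted p under 0.01, 12 with the fish as replicate block, 7 without a filter, 19 with DESeq2, 11 with all libraries in 1 fit, 9 without the section 4 library of fish 2, and 2 to 5 when 1 fish was left out. Between its gut ends (11) they were 1 at the stricter threshold, 25 with the block, 19 with DESeq2 and 2 to 3 when 1 fish was left out. For sections of E. cyanostictus (1) they were 0, 8 with DESeq2, 5 with all libraries and 1 to 3 when 1 fish was left out. Between its gut ends (1) they were 0 at the stricter threshold, 2 with the block, 7 with DESeq2, 2 with all libraries and 0 to 1 when 1 fish was left out. In L. attenuatus the counts of 8 and 15 were 2 and 4 at the stricter threshold and 25 and 31 with the block. For differing section courses (0) they were 4 with the block, 3 with DESeq2 and 0 to 1 when 1 fish was left out. For E. cyanostictus against H. burtoni (9) they were 1 at the stricter threshold, 18 with DESeq2 and 0 to 12 when 1 fish was left out; no fish block exists for this contrast. The cause of these changes was not tested.

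For single members, 195 of 268 values under an alternative kept their side of the threshold. A call was lost in 69 and gained in 4, and none (0) changed direction while called. The 268 include contrasts in which a member given by ID was not called in the main fit. Most of those values kept their side by staying uncalled, so 195 of 268 is not the share of calls that held. All 69 losses fell on results called in the main fits. With 2 fish per species, changes near the level of a few counts have wide intervals.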
